A study of Caenorhabditis elegans with 2 samples.

Results

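The C. elegans genome encodes a large set of secreted proteins related to Hedgehog, and 59 protein-coding genes of this kind were examined for binding by BLMP-1, a zinc-finger transcription factor homologous to mammalian Blimp-1. They were taken by symbol from the Ensembl annotation of build WBcel235 (ce11): 10 warthog genes (wrt), 16 groundhog genes (grd), 31 ground-like genes (grl), and hog-1 and qua-1, out of 19973 protein-coding genes in all. Binding was measured by chromatin immunoprecipitation and sequencing in whole larvae of the first larval stage (L1), both sexes pooled, from strain OP109, which carries a transgene of eGFP-tagged blmp-1 (wgIs109) and the unc-119(ed3) III allele. There were 2 biological replicates of this 1 group and no other condition, so the data describe where BLMP-1 bound and hold no contrast between conditions. Because whole animals were used, the lists do not say in which cells a site was bound, and binding of the tagged transgene product stands for that of BLMP-1.

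Warthog, groundhog and ground-like proteins have a secreted part, the Wart, Ground or Ground-like domain after which the subfamilies are named. Some hedgehog-related proteins also carry the Hog domain, by which Hedgehog proteins cleave themselves. The nematode has kept Patched and many Patched-related membrane proteins, while a classical Hedgehog route through Smoothened is not found in it. Many genes of the set are active in the epidermis and other epithelia that make cuticle, and qua-1 is required for molting. BLMP-1 itself acts in the larval epidermis and in developmental timing.

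The authors deposited an optimal list of 8751 peaks that passed an irreproducible discovery rate (IDR) filter, a pooled list of 30000 peaks called on both replicates together, and lists of 27310 and 30000 peaks for replicates 1 and 2. Rank 1 is the peak with the highest signal in a list. The signal is a value from the authors' caller without a stated scale, and ran from 62.0 to 4255 with a median of 147 in the optimal list. A gene was called bound when an optimal peak had its summit in the window around one of its transcript starts, which reached 1500 bp upstream and 500 bp downstream. Read depth was unknown. Intervals on shares are exact 95% binomial intervals (Clopper-Pearson) and cover counting error only, and no test was run on shares, ranks or distances.

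The DNA at the sites on which the results turn is shown here, read from the reference genome on the strand of the gene, 5′ to 3′, over 75 bp on each side of the summit and without annotated untranslated bases. Capitals mark the closest match to AAAGTGAAA, a motif counted at BLMP-1 peaks, on either strand with at most 1 mismatch. Substitutions are counted from 1 at the 5′ end of AAAGTGAAA. The sites of hog-1 and grd-1 and the upstream site of grl-17 had the best rank of their subfamilies or kind. Those of wrt-10 and wrt-2 are the warthog promoter sites outside untranslated sequence, and the intron sites of qua-1 and wrt-9 had the best ranks found within any member.
hog-1, minus strand, chrX:5854586-5854736: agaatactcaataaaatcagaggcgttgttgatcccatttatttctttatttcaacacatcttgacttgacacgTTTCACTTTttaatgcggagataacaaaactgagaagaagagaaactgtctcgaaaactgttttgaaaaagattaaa
qua-1 intron, plus strand, chrII:8199929-8200079: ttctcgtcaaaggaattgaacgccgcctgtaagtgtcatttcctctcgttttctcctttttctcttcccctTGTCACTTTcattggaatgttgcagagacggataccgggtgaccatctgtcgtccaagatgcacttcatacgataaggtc
qua-1 promoter, plus strand, chrII:8198292-8198442: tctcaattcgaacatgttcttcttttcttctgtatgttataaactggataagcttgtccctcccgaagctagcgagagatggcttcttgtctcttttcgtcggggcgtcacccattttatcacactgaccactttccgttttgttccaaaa
wrt-10, minus strand, chrII:7534564-7534678: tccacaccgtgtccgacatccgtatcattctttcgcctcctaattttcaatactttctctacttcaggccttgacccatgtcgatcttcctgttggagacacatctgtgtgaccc
wrt-2, minus strand, chrX:3094410-3094560: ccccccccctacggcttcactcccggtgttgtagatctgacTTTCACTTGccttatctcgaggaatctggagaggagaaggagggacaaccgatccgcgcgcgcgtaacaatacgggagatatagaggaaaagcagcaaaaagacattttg
wrt-9 intron, plus strand, chrX:1578817-1578967: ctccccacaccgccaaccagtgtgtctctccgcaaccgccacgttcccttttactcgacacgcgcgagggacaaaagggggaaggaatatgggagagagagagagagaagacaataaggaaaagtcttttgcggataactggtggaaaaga
grd-1, plus strand, chrX:11109341-11109439: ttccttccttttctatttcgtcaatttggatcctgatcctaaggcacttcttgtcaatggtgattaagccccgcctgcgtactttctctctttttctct
grl-17, upstream site, minus strand, chrV:13565337-13565487: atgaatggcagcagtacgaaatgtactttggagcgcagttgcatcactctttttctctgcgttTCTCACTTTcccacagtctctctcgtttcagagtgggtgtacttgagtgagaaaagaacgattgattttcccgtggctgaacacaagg
grl-17, site nearest its start, minus strand, chrV:13564094-13564244: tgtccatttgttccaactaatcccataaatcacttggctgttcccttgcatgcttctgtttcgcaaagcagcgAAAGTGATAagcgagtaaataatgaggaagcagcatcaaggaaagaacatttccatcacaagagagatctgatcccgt

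The hog-1 site held an exact match (TTTCACTTT on the strand shown), centred 3 bp from the summit. The match of the qua-1 intron site carried A8C, that of wrt-2 A1C, that of the upstream grl-17 site A8G and that of its nearer site A8T. No match was found in these windows at the qua-1 promoter, wrt-10, wrt-9 and grd-1 sites. Sequence at the wrt-1 and wrt-3 sites is not shown because their summits lay in 5′ untranslated sequence.

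Of the 59 hedgehog-related genes 18 were bound (30.5%, 19.2 to 43.9%), beside 5476 of all 19973 protein-coding genes (27.4%). Warthog genes were bound in 4 of 10 cases (40%, 12.2 to 73.8%), groundhog genes in 4 of 16 (25%, 7.27 to 52.4%) and ground-like genes in 8 of 31 (25.8%, 11.9 to 44.6%), and hog-1 and qua-1 were both bound. The intervals of the 3 subfamilies overlapped one another and all included the background, and with 10 warthog genes theirs was wide. Alternative starts, which widen the reach of a gene, were few: 52 of the members had 1 start (88.1%, beside 73.7% of all genes). Of those 52, 15 were bound (28.8%, 17.1 to 43.1%), beside 22.8% of all genes with 1 start. Chromosome V held 28 of the members (47.5%) and 25.0% of all protein-coding genes. Of the 28, 6 were bound (21.4%), beside 20.1% of all genes on that chromosome.

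**Figure D1:**
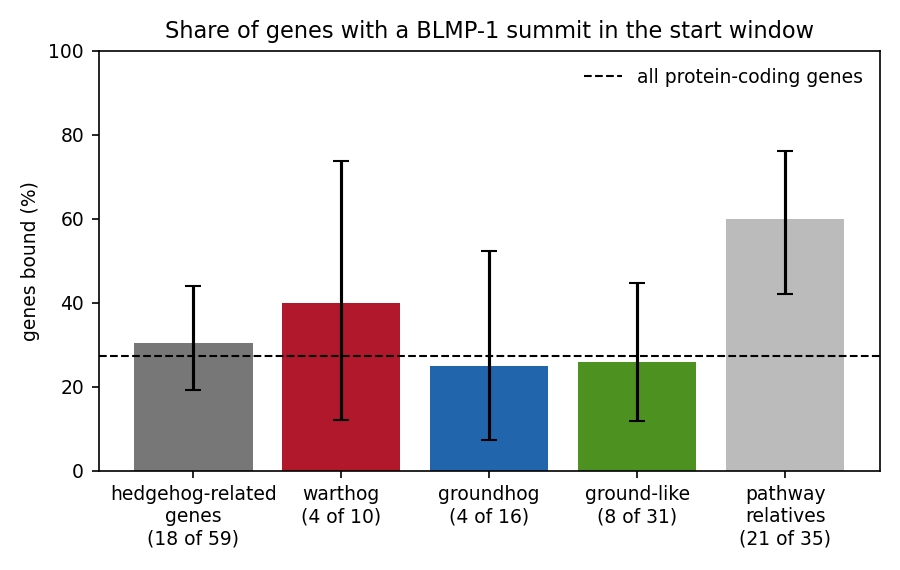
Share of genes bound (y axis, percent) for all hedgehog-related genes, the 3 large subfamilies and the 35 listed pathway relatives, with exact 95% binomial intervals as error bars; the dashed line marks all protein-coding genes (27.4%). The intervals of the 3 subfamilies overlap and include the line, and that of the relatives lies above it.

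The best peaks of the 4 bound warthog genes ranked from 558 to 1459 (median 883), all at rank 2187 or better, beside 27.1% of all bound genes. The best peaks of the 8 bound ground-like genes ranked from 863 to 8609 (median 6080), and 7 of them ranked below 4375, the middle of the list. The 4 bound groundhog genes spanned nearly the same ranks, from 952 to 8325 (median 5093), and the median over all bound genes was 3903.5. The warthog order leaned on replicate 2: in the 8751 strongest peaks of replicate 1 alone the 4 bound warthog genes ranked from 644 to 8690 (median 3335), and ground-like genes had a median of 5724. In replicate 2 alone the medians were 945 over 5 warthog genes and 6550 over 9 ground-like genes.

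**Figure D2:**
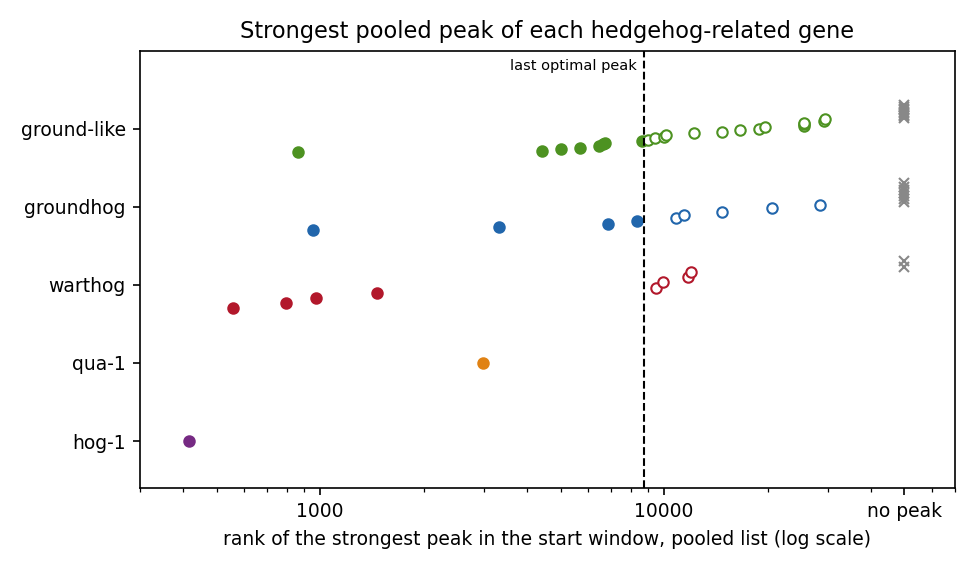
Rank of the strongest peak in the start window of each gene in the pooled list (x axis, log scale), by subfamily. Filled points are bound genes, open points have a peak ranked below the optimal list (dashed line at 8751), and crosses mark genes without a peak. The 4 filled warthog points lie at 558 to 1459, and 7 of the 8 filled ground-like points lie at 4406 or beyond.

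The gene hog-1, named for the Hog domain, had the best-ranked peak of all members inside the window. Its site ranked 416 in the optimal list (signal 673, X 5854528 to 5854781, intergenic, 398 bp upstream), 170 in replicate 1 and 671 in replicate 2. A second peak lay 1064 bp upstream and ranked 6395, with ranks of 4019 and 7640 in the replicates. Both replicates thus placed the nearer site far above the farther one.

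The molting gene qua-1 was bound at its promoter by a peak of rank 2977 (signal 205, II 8198329 to 8198434, intergenic, 436 bp upstream). Replicate 2 ranked that site 1667, and replicate 1's list held no summit within 100 bp of it. Of all optimal summits inside the members or up to 3000 bp upstream, the strongest lay inside qua-1 and outside the window used for the call: it ranked 42 (signal 1644, II 8199805 to 8200170, intron, 1201 bp downstream of the start). Here the replicates placed the site at nearly the same rank, 59 and 35. A further site 2496 bp upstream ranked 1477, with 2124 and 1236 in the replicates, and one 1624 bp upstream ranked 7312.

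Warthog genes encode secreted proteins with the Wart domain. The best peak of wrt-1 ranked 558 (signal 570, II 7530921 to 7531223, in its 5′ UTR, 99 bp downstream of the start). Its replicates differed most among the bound warthog genes: the site ranked 8690 in replicate 1, with a signal of 22.6, and 276 in replicate 2, with a signal of 543. The neighbouring gene wrt-10 lies on the opposite strand with its 3′ end facing that of wrt-1. Its peak ranked 796 (signal 477, II 7534468 to 7534778, 40 bp upstream, in an exon of the non-coding gene ZK1290.21), with close ranks of 985 and 742 in the replicates. The gene ZK1290.13 has that summit in its window too.

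The wrt-2 site ranked 1459 (signal 326, X 3094334 to 3094577, 136 bp upstream, in an exon of the non-coding gene F52E4.12). Replicate 1 ranked it 5685 and replicate 2 ranked it 945. The wrt-3 site ranked 970 (signal 421, IV 9477260 to 9477476, in its 5′ UTR, 100 bp downstream of a start), 644 in replicate 1 and 1255 in replicate 2. That peak lies 153 bp from the snoRNA gene F38E11.14, and it drops out when peaks less than 1000 bp from a small RNA gene (transfer, ribosomal, spliceosomal or nucleolar) are removed. All 4 best summits of warthog genes thus lay within 136 bp of a start, beside a median of 296 bp for all bound genes, and all 4 sites were among the 8751 strongest of both replicates.

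Of the 6 unbound warthog genes, 3 held optimal peaks in their introns, beyond the window. The longest, wrt-9 (14684 bp), held 5, and its first and second by strength ranked 110 (signal 1174, X 1578718 to 1579067, 2255 bp downstream of the start) and 366 (signal 712, X 1583981 to 1584334, 7543 bp downstream). Replicates 1 and 2 ranked the first 123 and 117 and the second 443 and 337, so both stood near the top of each list. The site in wrt-4 ranked 1372 (X 15755965 to 15756174, 1190 bp downstream), with 5448 and 913 in the replicates, and that in wrt-6 ranked 8318 (986 bp downstream) with no match in replicate 1. Upstream of wrt-1, 2578 bp from its start, lay another strong intergenic peak at rank 199 (II 7528261 to 7528563), 186 and 227 in the replicates, whose nearest start is that of ZK1290.5. For wrt-7 and wrt-8, which neighbour each other on chromosome V, the nearest optimal summits were 83645 and 90721 bp away.

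**Figure D3:**
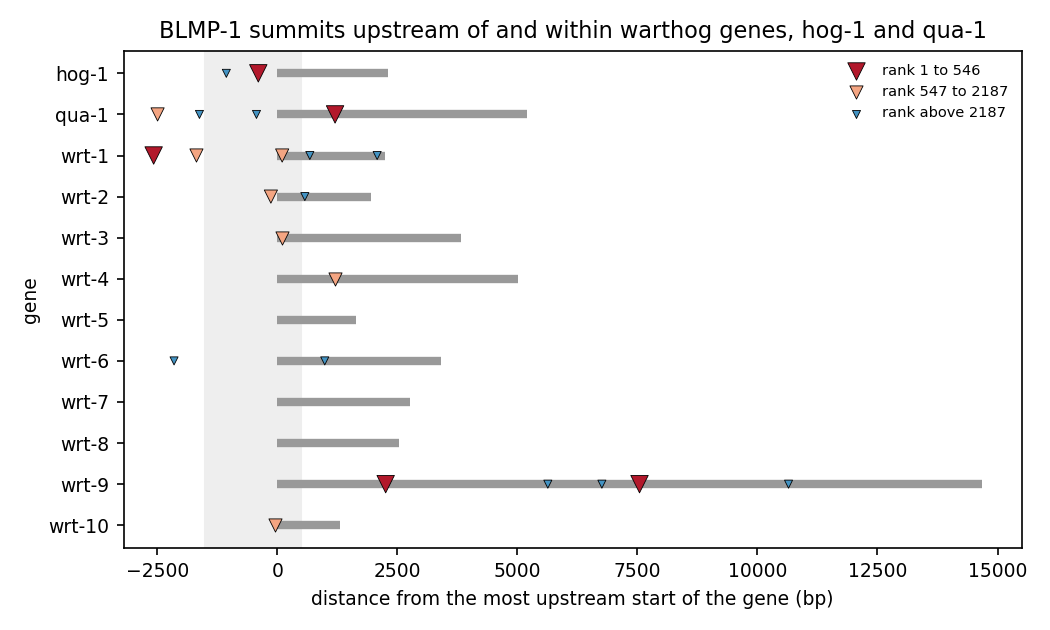
Summits of optimal peaks (triangles) from 3000 bp upstream to the end of each warthog gene, hog-1 and qua-1, by distance from the most upstream start (x axis, bp). Grey bars are the genes, the grey band is the window from 1500 bp upstream to 500 bp downstream, and triangle size and colour give rank classes. The largest triangles are those of hog-1 (416), the qua-1 intron (42), the site upstream of wrt-1 (199) and the wrt-9 introns (110 and 366).

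When a summit anywhere within the gene also counted, 7 of 10 warthog genes and 22 of 59 members were bound, beside 29.5% of all genes. This setting was chosen after the peaks in qua-1 and wrt-9 had been seen, and it gives long genes more room: the median length was 2640 bp for warthog, 1771 bp for groundhog and 1301 bp for ground-like genes, beside 2027 bp for all protein-coding genes. The genes gained were wrt-4, wrt-6, wrt-9 and grl-8, and the grl-8 peak (rank 6639) is the one already counted for grl-9.

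Groundhog genes encode secreted proteins with the Ground domain. The strongest site was that of grd-1, rank 952 (signal 429, X 11109288 to 11109499, intergenic, 30 bp upstream), which was the closest to a start of all members and ranked 2109 and 687 in the replicates. The gene grd-6, with 4 starts, had 2 sites, at rank 3317 (V 9220593 to 9220690, 1223 bp upstream) and rank 4081 (69 bp upstream). Replicates 1 and 2 ranked the farther site 3815 and 3420 and the nearer one 10111 and 3108. The peak of grd-7 ranked 6869 (X 7269543 to 7269878, 232 bp upstream, in a coding exon of the neighbouring gene F46H5.11), 5548 and 6995 in the replicates. That of grd-5 ranked 8325 (V 8619088 to 8619423, in its intron, 224 bp downstream of the start) and was absent from the list of replicate 1.

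The other 12 groundhog genes were unbound, and their nearest optimal summits lay from 3221 to 25195 bp away. They included the tandem genes grd-13, grd-3 and grd-10 on chromosome IV, and grd-14 and grd-4 on chromosome X. In all, 15 members sat in 6 groups of neighbours at most 10000 bp apart, of which 4 were bound (26.7%), beside 14 of the 44 others (31.8%). Strong optimal peaks beyond the window also lay near groundhog and ground-like genes. A summit 3221 bp downstream of the grd-4 start, past the end of the gene, ranked 998. One 3299 bp downstream of the most upstream grd-6 start ranked 858, nearest to the start of F07C3.2. Another, 2762 bp upstream of grl-21, ranked 1109, nearest to the start of orc-5.

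Ground-like genes encode secreted proteins with the Ground-like domain. Of the 8 that were bound, grl-17 had the best-ranked site, at rank 863 (signal 455, V 13565322 to 13565546, intergenic, 1471 bp upstream, just inside the window), 875 and 975 in the replicates. That summit lay closer to the start of slrp-1, 451 bp away, and a second peak of rank 4539 lay 228 bp upstream of grl-17, matched in replicate 2 only. The next by rank was grl-10 at 4406 (V 7774381 to 7774473, 85 bp upstream), 10894 in replicate 1 and 3373 in replicate 2. The other 6 were grl-15 (rank 5018, III), grl-28 (5707, V), grl-26 (6453, IV), grl-9 (6639, V), grl-11 (6728, III) and grl-16 (8609, I).

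Several of these peaks lay at features other than the promoter of the ground-like gene. The summit of grl-11 was nearer to the start of ced-11 (406 bp) and that of grl-28 to T24A6.20 (35 bp), the peak of grl-26 overlapped a tRNA gene, and the summit of grl-9 lay in the 3′ UTR of its neighbour grl-8. The sites of grl-15 and grl-16 had no match in the list of replicate 1. Over all 18 bound members the best summit was nearest to the member's own start in 15, and the others were grl-11, grl-17 and grl-28. Windows of other genes shared 5 of the 18 peaks (27.8%), beside 45.6% for all bound genes.

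**Figure D4:**
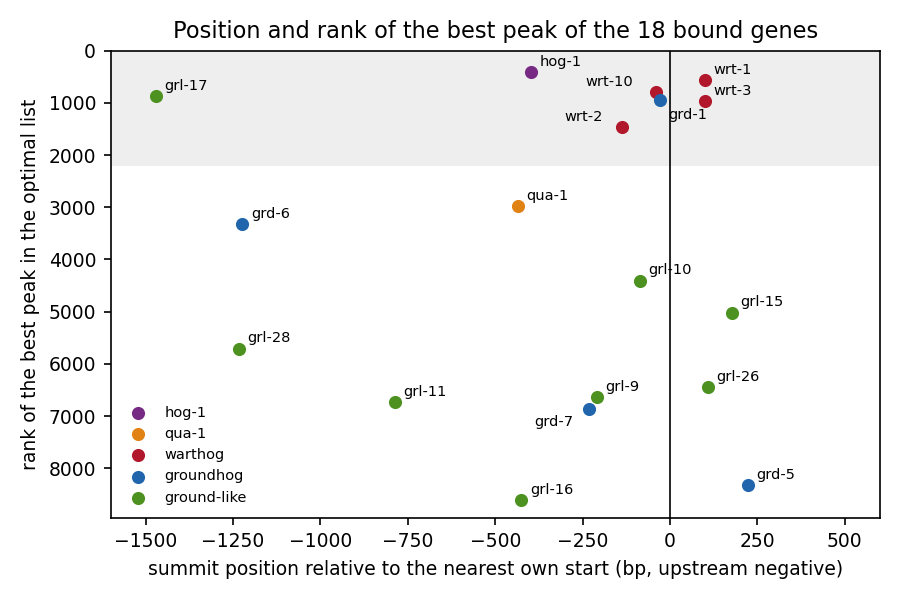
Position of the best summit relative to the nearest own start (x axis, bp, upstream negative) and its rank in the optimal list (y axis, strongest at the top) for the 18 bound genes, coloured by subfamily; the grey band covers ranks up to 2187. Warthog points lie within 136 bp of a start inside the band, and ground-like points spread from 85 to 1471 bp, with grl-17 as the exception inside the band.

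Distances to the start varied widely within the set. Over the 18 bound members the best summit lay 216.5 bp from the start in the median, and 14 were within 500 bp (77.8%, beside 64.2% of all bound genes). The medians were 99.5 bp for warthog, 228 bp for groundhog and 317 bp for ground-like genes. The summit was upstream of the start for 13 of 18 (72.2%, beside 92.3%), and the 5 downstream were those of wrt-1, wrt-3, grd-5, grl-15 and grl-26. Best summits fell in intergenic sequence in 8 cases, in a 5′ UTR in 4 and in exons of non-coding genes in 3. One each lay in an intron, a coding exon and a 3′ UTR.

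The replicates placed 12 of the 18 best sites (66.7%) among the 8751 strongest of both, beside 79.6% for all bound genes. For 5 sites, those of qua-1, grd-5, grl-10, grl-15 and grl-16, only replicate 2 held the site at that depth, and for grl-11 only replicate 1 did. Replicate 1's list held no summit at 4 of the 18 sites (22.2%, beside 7.43%). Without replicate 1, by the strongest peaks of replicate 2, 20 members were bound (27.9% of all genes). Without replicate 2 there were 17 (27.0% of all genes), of which 13 were among the 18.

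**Figure D5:**
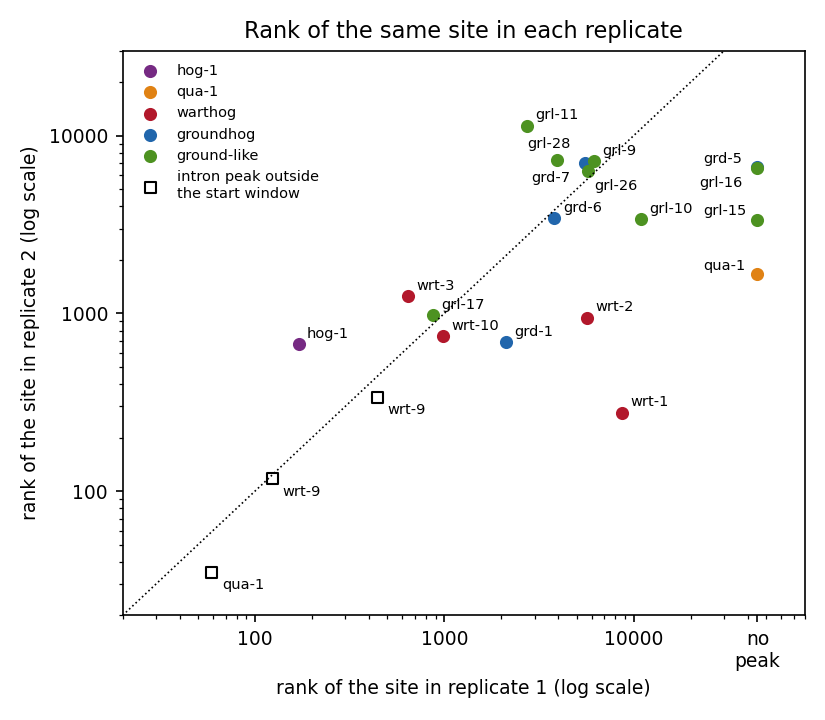
Rank of the same site in replicate 1 (x axis) and replicate 2 (y axis), both on log scales, for the best peaks of the 18 bound genes (points, coloured by subfamily) and for the intron peaks of qua-1 and wrt-9 ranked 2187 or better (open squares); the dotted line marks equal ranks and points at the right edge have no match in replicate 1. The squares lie along the line, and wrt-1 lies farthest from it among sites with a match, at 8690 and 276.

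The 41 unbound members often had a weaker peak in the same window. In the pooled list, which includes peaks that did not pass the IDR filter, 23 of the 41 (56.1%, 39.7 to 71.5%) had a summit there, beside 30.0% of all unbound genes. In the list of replicate 2 it was also 23 of 41 (56.1%, beside 29.4%), and in that of replicate 1 it was 17 (41.5%, 26.3 to 57.9%, beside 32.7%). Their best ranks in the pooled list started at 8961, that of grl-7, just below the optimal list, and ended at 29447, that of grl-20. By subfamily these were 4 of 6 warthog, 5 of 12 groundhog and 14 of 23 ground-like genes. Support from both single-replicate lists was rarer: 9 of 41 (22.0%, 10.6 to 37.6%) had a summit in each, beside 18.0% of all unbound genes. No list held a summit for 9 of the 41, and the matching share over all unbound genes was not computed. Of the unbound members, 3 had an optimal summit within 500 bp outside the window: grl-23, wrt-5 and wrt-6. That of grl-23 lay 60 bp beyond the upstream limit, nearest to the start of E02A10.3. That of wrt-5 lay 378 bp beyond the downstream limit, past the end of the gene, nearest to the start of pcn-1. That of wrt-6 lay 486 bp beyond the downstream limit.

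The share of bound members and that of all genes did not move together under every other setting. A window of 500 bp on each side kept 16 (27.1%, beside 19.5% of all genes). One reaching 3000 bp upstream gave 23 (39.0%, beside 34.5%). Overlap of the whole peak gave 19 (32.2%, beside 28.4%). The nearest start only, with summits up to 3000 bp away on either side in place of the window, gave 19 (32.2%, beside 25.1%). The most upstream start only gave 18 (30.5%, beside 25.9%). Removal of peaks near small RNA genes gave 16 (27.1%, beside 26.3%), where wrt-3 and grl-26 were lost. The 4375 strongest peaks kept 9 (15.3%, beside 15.3%): hog-1, qua-1, the 4 warthog genes, grd-1, grd-6 and grl-17. Peaks matched in both replicates kept 12 (20.3%, beside 22.0%), and all pooled peaks gave 41 (69.5%, beside 49.2%).

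The motif AAAGTGAAA with at most 1 mismatch, on both strands, lay within 75 bp of 8 of the 18 best summits (44.4%, 21.5 to 69.2%), beside 32.0% of all optimal summits. The direction of this difference turned with the window: within 50 bp a match lay at 7 of 18 (38.9%, beside 24.7%), and within 150 bp at 8 of 18 (44.4%, beside 46.9%). The 8 were those of hog-1, wrt-1, wrt-2, wrt-3, grd-7, grl-16, grl-17 and grl-28. Only the hog-1 site held an exact match (5.56%, beside 5.42% of all optimal summits). Windows of the same length 500 bp away held a match at 1 of the 18 sites on average over both flanks, beside 19.3% over all peaks. Outside the best peaks, exact matches lay at the second site of wrt-2 (rank 3342, in its intron) and at a weaker intron site of wrt-9 (rank 4075).

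Of the genes listed as relatives of the pathway, 35 were protein-coding: the ptr genes, the Patched homologs ptc-1 and ptc-3, the Dispatched-like che-14 and ptd-2, daf-6, the sterol-sensing ncr-1 and ncr-2, the Gli homolog tra-1, the acyltransferase relatives hhat-1 and hhat-2, and phg-1. They were bound in 21 cases (60%, 42.1 to 76.1%), beside 27.4% of all genes. Of the 24 ptr genes, which encode Patched-related membrane proteins, 16 were bound. The relatives were longer than most genes (median 6014 bp, beside 2027 bp), and the part of length in their share was not tested. By peaks inside the window, the best-ranked relatives were ptr-10 (rank 50, 82 and 43 in the replicates), che-14 (rank 70, 138 and 67), ptr-1 (479, 1018 and 383), ptr-2 (485, 2303 and 296) and ptr-11 (750, 558 and 891). The ptr-11 peak lay in its intron, 965 bp upstream of an internal start, and the peak at its most upstream start ranked 2726.

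Both Patched genes were bound. The site of ptc-3, in its intron 58 bp upstream of an internal start, ranked 3580, with 7034 and 2811 in the replicates. That of ptc-1 ranked 2355 (1065 bp upstream, in an exon of the non-coding gene T01H3.7) and was matched in replicate 2 only. Outside the window, an intron peak of ptc-1 ranked 1396, with 2562 and 1108 in the replicates, and another ranked 7670. The genes tra-1, ncr-1, ncr-2, ptd-2, hhat-2 and phg-1 were unbound. Outside the window, however, ncr-1 held intron peaks at rank 333 (364 and 335 in the replicates) and rank 2529. An intron peak of ncr-2 ranked 2231 (1746 and 2520), with its summit nearest to the start of col-91. The relatives were chosen with part of these results known, and their count fell to 13 in the window of 500 bp on each side, where 19.5% of all genes were bound.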

How the data were processed

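Peak lists of narrowPeak type came from 2 samples, biological replicates 1 and 2 of 1 group of L1 larvae. The authors made lists for each replicate and for both together, as input to an IDR analysis whose thresholded output is the optimal list, per the listings deposited with the files. Each peak's signal is the value the authors deposited. Per the labels, the size range was 150 to 350. For the aligner, peak caller, versions and IDR threshold, nothing was given in the sources used here. Depth per sample was unknown. Lists on build ce10 were not used.

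Gene models were those of Ensembl release 115 (WBcel235, ce11), with protein-coding transcripts of nuclear genes only. Coordinates are 1-based. Sites were matched between lists by summits within 100 bp. Sequence came from the RefSeq genome of the same assembly. Every bound member was named, as were unbound members within 500 bp of the window, the 5 best-ranked relatives and both Patched genes. Peaks and genes named beyond this rule, such as wrt-4, wrt-9, the qua-1 intron and the site upstream of wrt-1, were singled out after their values were seen. Members and lists were chosen with earlier results of these data known. The assignment of peaks to genes was checked on planted summits. Computation used Python 3.11.15, numpy 2.4.6, pandas 2.3.3 and scipy 1.17.1.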

Additional observations from a re-analysis of the deposited data

How the results depend on the processing

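With 2 replicates and unknown depth, no spread between animals could be given for any rank or share. Of 12 alternative settings, 10 kept the count of bound members within 1.5 times of 18, while the 4375 strongest peaks gave 9 and all pooled peaks gave 41. The count of ground-like genes was 1 of 31 with the 4375 strongest peaks (3.23%, beside 15.3% of all genes). It was 4 with peaks matched in both replicates (12.9%, beside 22.0%) and 22 with all pooled peaks (71.0%, beside 49.2%). Groundhog genes numbered 2 of 16 with the 4375 strongest peaks (12.5%, beside 15.3%) and 9 with all pooled peaks (56.25%, beside 49.2%). Warthog genes numbered 7 of 10 with the nearest start only (70%, beside 25.1%) and 8 with all pooled peaks (80%, beside 49.2%). The nearest-start setting replaced the window by 3000 bp on either side. It gained wrt-4, wrt-6 and wrt-9 through summits outside the main window. With the gene body added, a setting chosen after seeing the data, warthog genes numbered 7 (70%, beside 29.5%), with the same warthog genes gained. The pathway relatives numbered 13 of 35 in the window of 500 bp on each side (37.1%, beside 19.5%). Of the members' best peaks, 1 held an exact motif match, and 1 held a match in the flanks on average. The settings with the 4375 strongest peaks and with matched peaks use fewer peaks, so counts can only fall there. The cause of the shifts, and of their unequal size across subfamilies, was not tested. The median rank of bound members, 3861.5 in the main setting, was 1214.5 with peaks matched in both replicates, 3371.5 without replicate 1 and 5548 without replicate 2. With the 4375 strongest peaks it was 952, a setting that selects on rank itself and so lowers it by construction. The median distance ranged from 136 to 425 bp over its alternatives. The share of members' peaks with a motif match was above that of all peaks within 50 and 75 bp and below it within 150 bp.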
